A study of Mus musculus with 50 samples.

Results

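A set of 9 genes known for their response to loss of the nerve was followed through ageing in mouse muscle: Gadd45a, Gadd45b, Gadd45g, Hdac4, Hdac5, Hdac9, Dach2, Ncam1 and Runx1. They were taken by symbol, 9 of the 23880 genes in the tables, and all 9 were among the 12586 genes kept for testing, which reached 1 CPM (a read count scaled to the depth of its library) in 8 or more mice. RNA was sequenced from the gastrocnemius, a fast-twitch calf muscle, of 50 wild type male C57BL/6JRj mice, an inbred strain, with 8 mice each at 8, 18, 22 and 24 months and 9 mice each at 26 and 28 months. No group was surgically denervated, and age was the variable. All mice were singly caged and fed AIN93M, a purified diet. The 8 and 18 months-old mice were moved to it at least 2 months before the endpoint and the older groups from 18 to 19 months of age, so that the age at which the diet began was shared from 22 months on, while time on the diet grew with age there and cannot be told apart from it.

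A muscle fibre that loses its motor nerve re-expresses many genes that innervation keeps low. In the best known chain, the class IIa histone deacetylases HDAC4 and HDAC5 accumulate and repress Dach2, itself a repressor of myogenin, which raises the acetylcholine receptor subunits and the ubiquitin ligases Trim63 and Fbxo32. HDAC9, whose short splice form lacks the deacetylase domain, is the member of this class that innervated muscle keeps high and denervated muscle loses. HDAC4 also acts upstream of Gadd45a, a small nuclear stress protein that with ATF4 drives fibre atrophy, while Gadd45b and Gadd45g are its close relatives. RUNX1 is a transcription factor, best known from blood formation, that denervated fibres switch on, and NCAM1 is a cell adhesion molecule that spreads from the neuromuscular junction over the whole surface of a denervated fibre.

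Between 8 and 28 months, 5 of the 9 genes rose and none fell: Runx1, Gadd45a, Gadd45g, Ncam1 and Hdac5. Runx1 and Gadd45a rose about 5-fold and were the 45th and 46th largest increases of all 12586 genes, whereas Hdac5 rose 1.29-fold. Gadd45b, Hdac4, Hdac9 and Dach2 did not pass the test. A gene was called at an adjusted p below 0.01 in edgeR's quasi-likelihood test. Of all genes, 39.6% were called in this comparison and 21% were called as higher at 28 months, and the median log2 fold change of all genes was 0.01 against 0.36 for the 9. In whole muscle, fewer cells of one type and less RNA per cell cannot be told apart, and the same holds for more cells and more RNA per cell.

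The stretches just upstream of 5 of these genes are shown, among them the 3 GADD45 genes, close relatives in protein that differed in response. All 5 carry some of the letters searched for below. Hdac9 and Dach2 carry some too and are not shown. The stretches were read from RefSeq (GRCm38.p6), which held windows of 250 bases before the start site for 8 of the 9 genes, 11 windows in all. Where GENCODE places the start of the gene further upstream, only the bases outside the gene are shown. Capitals mark every match to 6 motifs, on either strand: the E-box CANNTG, bound by myogenic factors, its CAGCTG form, the RUNX core TGTGGT, the ATF4 composite element TGATGNAA, the cAMP response element TGACGTCA and the AP-1 site TGANTCA. Sequences run 5′ to 3′ on the strand of the gene. The stretch of Gadd45a lies at chr6:67037458-67037657 on the minus strand, Gadd45b at chr10:80929841-80930072 on the plus strand, Gadd45g at chr13:51846425-51846674 on the plus strand, Hdac5 at chr11:102230173-102230422 on the minus strand and Runx1, for its upstream start site, at chr16:92826150-92826324 on the minus strand.
Gadd45a: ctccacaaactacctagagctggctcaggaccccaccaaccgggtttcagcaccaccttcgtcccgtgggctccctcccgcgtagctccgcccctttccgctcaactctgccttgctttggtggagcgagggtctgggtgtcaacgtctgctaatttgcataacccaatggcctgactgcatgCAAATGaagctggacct
Gadd45b: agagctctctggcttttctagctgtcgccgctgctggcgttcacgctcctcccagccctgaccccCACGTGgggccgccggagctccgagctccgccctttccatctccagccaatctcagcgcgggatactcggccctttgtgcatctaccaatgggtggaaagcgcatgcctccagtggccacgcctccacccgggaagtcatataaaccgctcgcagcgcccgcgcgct
Gadd45g: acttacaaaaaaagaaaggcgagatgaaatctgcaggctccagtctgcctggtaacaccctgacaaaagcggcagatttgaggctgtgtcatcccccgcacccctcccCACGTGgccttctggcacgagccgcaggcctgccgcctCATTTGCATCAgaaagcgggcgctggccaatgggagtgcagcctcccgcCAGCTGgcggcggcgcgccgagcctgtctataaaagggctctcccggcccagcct
Hdac5: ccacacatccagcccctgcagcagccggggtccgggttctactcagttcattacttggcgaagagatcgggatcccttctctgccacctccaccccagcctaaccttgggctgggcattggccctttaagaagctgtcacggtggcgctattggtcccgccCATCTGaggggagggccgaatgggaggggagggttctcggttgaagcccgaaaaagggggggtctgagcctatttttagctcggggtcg
Runx1: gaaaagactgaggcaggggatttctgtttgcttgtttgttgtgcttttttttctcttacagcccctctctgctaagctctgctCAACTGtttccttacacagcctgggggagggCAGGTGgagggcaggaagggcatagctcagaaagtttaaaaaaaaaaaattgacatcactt

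Of the 3 GADD45 windows, that of Gadd45g alone held the ATF4 composite element, on the reverse strand with its first base 101 bases before the RefSeq start and overlapping an E-box, and the CAGCTG form of the E-box, 55 bases before it. The ATF4 element was present in 3.45% of 32851 RefSeq windows of the same length and CAGCTG in 13.0%. Gadd45a and Gadd45b each held 1 E-box and none of the other motifs, and an E-box was present in 66.2% of all windows. Elsewhere, both Hdac9 windows held CAGCTG and further E-boxes, and 1 of them an AP-1 site, which 6.75% of all windows held. Of the 2 Dach2 windows, 1 held the RUNX core, which 14.05% held, and the other held 1 E-box. The Hdac4 window, the Hdac5 window apart from 1 E-box, and the 2 Runx1 windows apart from 3 E-boxes in the upstream one held none of the 6. The cAMP response element, present in 1.55% of all windows, was in none of the 11. These matches are descriptions of letters and not binding sites.

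Levels between genes can be compared in TPM, which takes the length of the transcripts into account. At 8 months Gadd45g was the most abundant at 88.6 ± 26.6 TPM (SD, n = 8), followed by Hdac5 at 43.4 ± 2.52 and Gadd45a at 34.7 ± 8.63. Hdac4 at 22.5 ± 8.56 TPM and Gadd45b at 21.3 ± 7.12 TPM differed by less than their spread. The other 4 were low: Ncam1 at 3.45 ± 0.906, Hdac9 at 2.41 ± 0.927, Dach2 at 2.26 ± 0.854 and Runx1 at 1.21 ± 0.286 TPM, of which Hdac9 and Dach2 could not be separated. By 28 months Gadd45a had reached 184 ± 152 TPM (SD, n = 9), close to Gadd45g at 208 ± 149, and Runx1 at 6.57 ± 3.92 TPM had passed Hdac9 at 2.42 ± 1.04 and Dach2 at 2.57 ± 0.965. Library totals ranged from 13607229 to 21267375 counts, so that even the weakest values rested on at least 22 counts for Dach2, 26 for Hdac9 and 42 for Runx1.

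**Figure D1:**
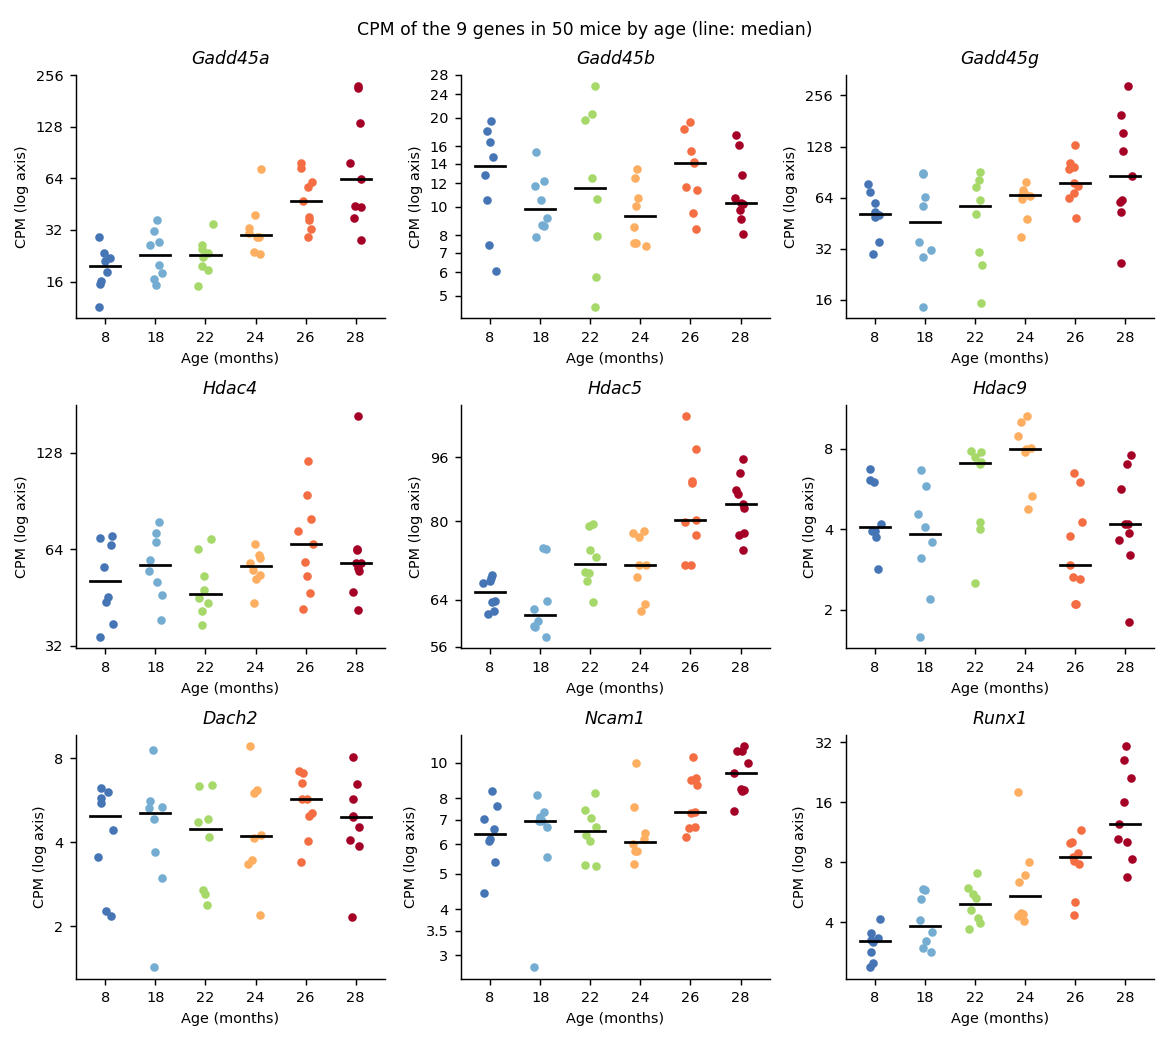
CPM of each of the 9 genes (vertical log axis, 1 panel a gene) in each mouse by age in months, where points are mice and black lines medians. All 28 months-old mice lie above every 8 months-old mouse in Runx1 and Hdac5 and 8 of 9 do in Gadd45a, while Gadd45b, Hdac9 and Dach2 overlap throughout.

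Gadd45a (ENSMUSG00000036390, chr6:67035096-67037457) rose late and unevenly. At 8 months it ranged from 11.3 to 29.2 CPM with a median of 19.6. The medians at 18 and 22 months were 23.0 and 22.8 CPM, and that at 24 months was 29.9. At 26 months the range was 29.0 to 78.4 CPM with a median of 47.4, and at 28 months 28.1 to 223 CPM with a median of 63.2. In all, 8 of the 9 mice of 26 months and 8 of the 9 of 28 months were above every 8 months-old mouse. Against 8 months, its log2 fold change was 1.36 ± 0.31 (SE) at 26 months (adjusted p = 0.00087) and 2.30 ± 0.31 at 28 months (adjusted p = 2.1e-07). At 24 months it was 0.84 ± 0.31 (adjusted p = 0.13), and 0.60 without 24 months replicate 1, whose 72.8 CPM stood apart from the other mice of that age.

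The 28 months-old mice differed widely in Gadd45a. Replicates 1, 2 and 5 had 223, 217 and 135 CPM, and the other 6 lay between 28.1 and 78.7 CPM. With replicates 1 and 2 left out together, an alternative chosen after the values were seen, the log2 fold change was 1.65 and Gadd45a was still called (adjusted p = 6.7e-06). The mean absolute deviation from the median, on the log2 scale, was 0.88 at 28 months and 0.32 at 8 months. This difference in spread did not pass the correction over the 9 genes (exact permutation test, two-sided, p = 0.027, adjusted p = 0.12), nor did those of Gadd45g and Runx1 (both adjusted p = 0.12). Without 28 months replicate 4 all 3 passed, and without replicate 7 or 9 Runx1 did.

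Gadd45g (ENSMUSG00000021453, chr13:51846678-51848468) rose less far on the log2 scale, and less firmly. The 8 months-old mice had a median of 51.4 CPM (range 29.7 to 77.0), those of 26 months one of 78.1 CPM (48.6 to 131) and those of 28 months one of 85.7 CPM (26.4 to 293). At that age 5 of the 9 mice were above every 8 months-old mouse and 1, replicate 3, was below them all. On the log2 scale the difference was 0.68 ± 0.33 at 26 months (adjusted p = 0.11) and 1.15 ± 0.34 at 28 months (adjusted p = 0.0039). The call at 28 months was lost without 28 months replicate 1 (0.85, adjusted p = 0.025), without 28 months replicate 5 (1.02, adjusted p = 0.012) and without 8 months replicate 4 (1.06, adjusted p = 0.0104), and with replicates 1 and 2 of 28 months left out together it was 0.71 (adjusted p = 0.072). It was also lost when the fit held these 2 ages alone (1.14, adjusted p = 0.016) and with limma on log2(TPM + 1) (0.93, adjusted p = 0.019).

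Gadd45b (ENSMUSG00000015312, chr10:80930073-80932204), the family member induced early by growth factors and inflammatory signals, gave no call at any age. Its medians lay between 9.31 CPM at 24 months and 14.1 CPM at 26 months. The 8 months-old mice ranged from 6.05 to 19.6 CPM and the 28 months-old mice from 8.08 to 17.4 CPM, wholly inside them. At 28 months its log2 fold change was -0.19 ± 0.24 (adjusted p = 0.53).

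The divergence within the family was tested as the log2 ratio of 2 genes within each mouse, which does not depend on the scaling between libraries. The ratio of Gadd45a to Gadd45b rose from 0.62 ± 0.44 at 8 months (SD, n = 8) to 2.71 ± 0.97 at 28 months (SD, n = 9), a difference of 2.09, and all 9 older mice were above all 8 younger ones (exact permutation test, two-sided, p = 8.2e-05, adjusted over 6 ratios 0.00049). The ratio of Gadd45a to Gadd45g rose by 1.10, from -1.42 ± 0.68 to -0.32 ± 0.52, with 7 of 9 older mice above every younger one (exact permutation p = 0.00082, adjusted 0.0025). Gadd45g against Gadd45b differed by 0.99 (exact permutation p = 0.054, adjusted 0.11) and passed without 8 months replicate 5 (1.22, adjusted 0.035) or 28 months replicate 3 (1.20, adjusted 0.034). Among the class IIa deacetylases no ratio passed: Hdac4 to Hdac5 differed by -0.08 (exact permutation, adjusted p = 0.77), Hdac4 to Hdac9 by 0.37 (adjusted p = 0.57) and Hdac5 to Hdac9 by 0.45 (adjusted p = 0.19).

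**Figure D2:**
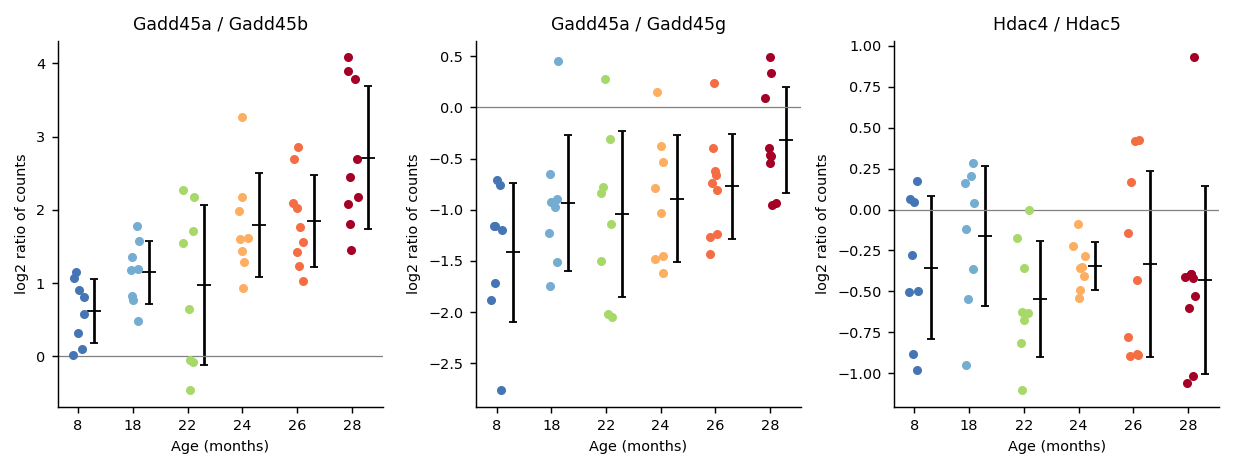
Log2 ratio of counts of 2 genes within each mouse (vertical axis) by age in months, with points for mice and bars for mean ± SD. Gadd45a over Gadd45b averages 0.62 at 8 months and 2.71 at 28 months without overlap, Gadd45a over Gadd45g moves from -1.42 to -0.32, and Hdac4 over Hdac5 averages -0.36 and -0.43.

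Runx1 (ENSMUSG00000022952, chr16:92601466-92826149) had the lowest level of the 9 in young muscle. Its fold change between 8 and 28 months was the largest of the 9, but differed from that of Gadd45a (log2 2.30 ± 0.31) by less than the SE. Against 22 months, Gadd45a had the larger one, at 2.07 against 1.65 for Runx1. At 8 months Runx1 ranged from 2.38 to 4.16 CPM with a median of 3.22. Medians were 3.85 CPM at 18 months, 4.95 at 22, 5.41 at 24, 8.50 at 26 and 12.5 at 28 months, where the range was 6.77 to 30.7 CPM. In CPM, 3 of 8 mice at 18 months, 6 of 8 at 22, 7 of 8 at 24 and all 9 at both 26 and 28 months were above every 8 months-old mouse. In TPM, 26 months replicate 4, at 1.59, lay below the highest 8 months-old mouse, at 1.65. The log2 fold change of Runx1 was 0.43 ± 0.28 at 18 months, 0.68 ± 0.28 at 22 months (adjusted p = 0.43), 1.18 ± 0.28 at 24 months (adjusted p = 0.012), 1.40 ± 0.27 at 26 months (adjusted p = 0.00018) and 2.33 ± 0.27 at 28 months (adjusted p = 1.7e-08). The value at 24 months fell just short of the threshold and leaned on 24 months replicate 1, at 18.1 CPM. Without that mouse it was 0.81 (adjusted p = 0.091).

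RUNX1 is also made by blood cells, so the macrophage markers are given beside it. Of 8 markers, 5 rose between 8 and 28 months and none fell, where 21% of all genes were called as higher. The median log2 fold change of the markers was 0.64: Cd163 rose by 1.29, Ptprc by 1.22, Mrc1 by 0.84, Lyz2 by 0.70 and Csf1r by 0.57, while Adgre1 was at 0.15 (adjusted p = 0.57). Their summed level ranged from 154 to 266 TPM at 8 months and from 241 to 686 TPM at 28 months. No marker of the list was at 0 in any mouse, and the part of these cells in the Runx1 result was not tested. All 7 lymphocyte markers in the table were below the filter, and their summed level was at most 2.82 TPM in any mouse.

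Ncam1 (ENSMUSG00000039542, chr9:49502136-49798925) rose modestly and late. It ranged from 4.43 to 8.4 CPM at 8 months (median 6.42), and its medians at 18, 22 and 24 months lay between 6.11 and 6.96 CPM. Its median was 7.34 CPM at 26 months. At 28 months the median was 9.35 CPM with a range of 7.39 to 11.1 CPM, and 7 of 9 mice were above every 8 months-old mouse. The log2 fold change was 0.29 ± 0.14 at 26 months (adjusted p = 0.097) and 0.54 ± 0.14 at 28 months (adjusted p = 0.0012). Unlike Gadd45a and Runx1 it had no wide upper tail at 28 months, with a coefficient of variation of 13.9% against 79.4% and 53.3%, values that were not tested against each other.

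NCAM1 also marks Schwann cells without myelin and satellite cells, the muscle stem cells. Between 8 and 28 months, 21% of all genes were called as higher. Of 8 Schwann cell markers none rose and 1, S100b, fell by 1.07 on the log2 scale. The median was -0.37, and their summed level was 88.9 to 364 TPM at 8 months and 104 to 291 TPM at 28 months. Of 5 satellite cell markers tested, Cdh15 (0.57) and Vcam1 (0.64) rose, Pax7, the defining one, was at -0.67 (adjusted p = 0.026), and the summed level was 33.2 to 58.8 TPM at 8 months and 32.6 to 124 TPM at 28 months. The part of these cells in the Ncam1 result was not tested.

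Hdac5 (ENSMUSG00000008855, chr11:102194432-102230166) was the steadiest of the 9. It ranged from 61.4 to 68.7 CPM at 8 months, a coefficient of variation of 4.41%, and from 73.7 to 95.4 CPM at 28 months. In CPM, all 9 mice of 26 months and all 9 of 28 months were above every 8 months-old mouse. In TPM this held at 28 months only. There, 26 months replicates 2 and 3, at 43.04 and 46.99 TPM, lay below the highest 8 months-old mouse, at 47.7 TPM. This small rise was of 0.38 ± 0.07 at 26 months (log2, adjusted p = 0.00011) and of 0.36 ± 0.07 at 28 months (adjusted p = 3.7e-05), with 28 against 26 months at -0.01 ± 0.07 (adjusted p = 0.94). Runx1 and Hdac5 were thus the 2 genes of the 9 whose 8 and 28 months-old mice did not overlap. Of all genes, 4.7% did not overlap and 2.46% had every 28 months-old mouse above every 8 months-old one.

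Hdac4 (ENSMUSG00000026313, chr1:91928779-92195699), the deacetylase most directly tied to denervation, was not called. The 8 months-old mice lay between 34.0 and 70.5 CPM (median 50.7), those of 26 months between 41.7 and 121 CPM (median 66.2) and those of 28 months between 41.3 and 167 CPM (median 57.9). At 28 months 1 of 9 mice, replicate 1 at 167 CPM, was above every 8 months-old mouse, and the next highest had 64.0 CPM. Log2 fold changes were 0.41 ± 0.20 at 26 months (adjusted p = 0.10) and 0.36 ± 0.20 at 28 months (adjusted p = 0.13), and the latter was 0.07 without replicate 1 (adjusted p = 0.75).

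Hdac9 (ENSMUSG00000004698, chr12:34047580-34917095) moved, but not in one direction. Its median was 4.06 CPM at 8 months and 3.83 at 18 months, then 7.07 at 22 months and 7.97 at 24 months, and then 2.94 at 26 months and 4.19 at 28 months. At 24 months 6 of 8 mice were above every 8 months-old mouse, and 4 of 9 at 26 months were below them all. Tested for any difference over the 6 ages, it passed (adjusted p = 0.0019), as did the 5 genes that rose by 28 months, 6 of 9 in all where 35.4% of all genes passed. No single pair of ages passed for Hdac9: 24 against 8 months was 0.76 ± 0.26 (adjusted p = 0.091), 26 against 24 months -1.12 ± 0.26 (adjusted p = 0.057) and 28 against 24 months -0.79 ± 0.25 (adjusted p = 0.018). Between 8 and 28 months it was at -0.03 ± 0.26.

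Dach2 (ENSMUSG00000025592, chrX:113297510-113836386), the myogenin repressor, overlapped at all ages. Its medians lay between 4.21 CPM at 24 months and 5.71 CPM at 26 months, and single mice ranged from 1.42 to 8.86 CPM over the 50. The log2 fold change at 28 months was 0.14 ± 0.26 (adjusted p = 0.66), and the test over 6 ages gave an adjusted p of 0.84.

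**Figure D3:**
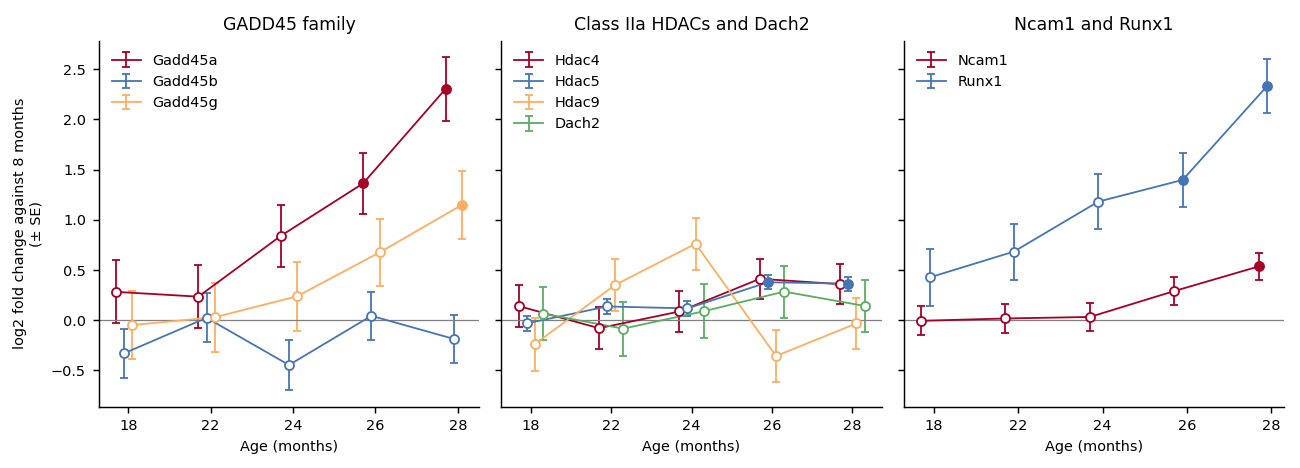
Log2 fold change against 8 months (vertical axis, ± SE) by age in months for the GADD45 family, the class IIa deacetylases with Dach2, and Ncam1 with Runx1, where filled points passed an adjusted p below 0.01. Gadd45a and Runx1 climb to 2.30 and 2.33 at 28 months, Hdac5 levels off at 0.36, and Hdac9 peaks at 0.76 at 24 months before it drops. All points share the 8 months-old mice.

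Set in order of age, the calls came late. Against 8 months, edgeR called none of the 9 at 18 months (0 at an unadjusted p below 0.05, and 0 with DESeq2 or limma, and 0.0715% of all genes), none at 22 months (1 unadjusted, 0 with DESeq2 or limma, 0.0397%) and none at 24 months (3 unadjusted, 1 with DESeq2, 0 with limma, 0.612%). At 26 months 3 were called, Gadd45a, Runx1 and Hdac5, all higher, where 18.4% of all genes were called and 9.84% as higher. Gadd45g and Ncam1 were added at 28 months. Between successive ages from 22 months on no gene at all was called (0% at 24 against 22, at 26 against 24 and at 28 against 26 months), and at an unadjusted p below 0.05 there were 0, 3 and 2 of the 9. The other tools were not run for these pairs.

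The mice of 28 months were also compared with those of 22 months, which began the diet at the same age but had been on it for a shorter time. The same 5 genes were called, all higher, where 27.7% of all genes were called and 16.2% as higher: Gadd45a at 2.07 ± 0.31 (adjusted p = 1.3e-05), Runx1 at 1.65 ± 0.26 (adjusted p = 1.5e-05), Gadd45g at 1.12 ± 0.34 (adjusted p = 0.0070), Ncam1 at 0.52 ± 0.14 (adjusted p = 0.0027) and Hdac5 at 0.23 ± 0.07 (adjusted p = 0.0079). The calls for Gadd45g and Hdac5 lay near the threshold. Both were lost with upper-quartile factors, under the replicate block and when the fit held these 2 ages alone. Of the 17 mice left out singly, 8 ended the call of Gadd45g (replicates 2, 3, 5 and 7 of 22 months and 1, 2, 5 and 8 of 28 months, log2 fold change 0.82 to 1.11, adjusted p up to 0.040), 11 that of Hdac5 (replicates 1, 3, 4, 6, 7 and 8 of 22 months and 1, 5, 7, 8 and 9 of 28 months, 0.20 to 0.23, adjusted p up to 0.022) and 5 of them both. Against 24 months, 4 were called, where 10.9% of all genes were called and 7.83% as higher: Gadd45a at 1.46, Runx1 at 1.15, Ncam1 at 0.50 and Hdac5 at 0.25, while Gadd45g at 0.91 was not (adjusted p = 0.039). Against 18 months the 5 genes were called again at 28 months (35.6% of all genes) and 3 of them, Gadd45a, Runx1 and Hdac5, at 26 months (10.1% of all genes). The 3 remaining pairs gave no call among the 9: 26 against 22 months (2.65% of all genes, 5 of the 9 at an unadjusted p below 0.05), 24 against 18 months (0.111%, 3) and 22 against 18 months (0.00795%, 2).

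The same mice were high in several of these genes at once. At 28 months replicates 1, 2 and 5 held the 3 highest values of Gadd45a, of Gadd45g and of Runx1, and replicate 3 held the lowest of all 3. Over the 50 mice, with the mean of each age subtracted, Gadd45a and Runx1 were correlated (r = 0.74 by Pearson and rho = 0.62 by Spearman, permutation within ages, p adjusted over 36 pairs = 0.00036 and 0.0011, the former resting on the smallest p that the permutations can give, 1e-05), and r was 0.64 without the 2 mice farthest from the median of Gadd45a. Within single ages r ranged from -0.76 at 8 months (n = 8) to 0.91 at 24 months (n = 8) and 0.96 at 28 months (n = 9), as a description. Gadd45a and Gadd45g correlated with r = 0.59 and rho = 0.54 (permutation, adjusted p = 0.0025 and 0.0059), and r = 0.48 without the 2 farthest mice.

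Ncam1 and Runx1 correlated with r = 0.42 and rho = 0.43 (permutation, adjusted p = 0.016 and 0.030), but r was 0.30 without 18 months replicate 2 and 24 months replicate 1 (adjusted p = 0.19), so that passing the threshold rested on those 2 mice. Within single ages r was positive throughout, from 0.18 to 0.83, as a description, and in the mice of 26 and 28 months alone it was 0.21 (permutation, adjusted p = 0.76). Gadd45b and Hdac5 correlated with r = 0.40 and rho = 0.37 (permutation, adjusted p = 0.016 and 0.062), and r = 0.37 without the 2 farthest mice. This pair did not pass on log2(TPM + 1) (r = 0.38, adjusted p = 0.10) nor in the mice of 26 and 28 months alone (r = 0.47, adjusted p = 0.24). Gadd45b and Hdac9 passed in rho, at -0.42 (permutation, adjusted p = 0.033), but not in r over the 50 mice, at -0.36 (adjusted p = 0.082), which was -0.43 without 22 months replicates 7 and 8 (adjusted p = 0.030). No other pair passed over the 50 mice in r or rho on log2(CPM + 0.5). The pairs of the chain described above were among them: Hdac4 with Dach2 at r = 0.12 (permutation, adjusted p = 0.59), Hdac5 with Dach2 at r = -0.22 (adjusted p = 0.30) and Hdac4 with Gadd45a at r = 0.37 (adjusted p = 0.11). Gadd45a with Dach2, at r = -0.28 over the 50 (permutation, adjusted p = 0.15), passed without 28 months replicate 2 (-0.41, adjusted p = 0.015), as did Gadd45g with Dach2 (-0.36, adjusted p = 0.082, and -0.41, adjusted p = 0.031, without it). Hdac5 with Ncam1, at r = 0.05 (permutation, adjusted p = 0.90), passed on log2(TPM + 1) (r = 0.44, adjusted p = 0.011). Gadd45g with Runx1, at r = 0.33 (permutation, adjusted p = 0.14), passed in the mice of 26 and 28 months alone (r = 0.75, adjusted p = 0.026).

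**Figure D4:**
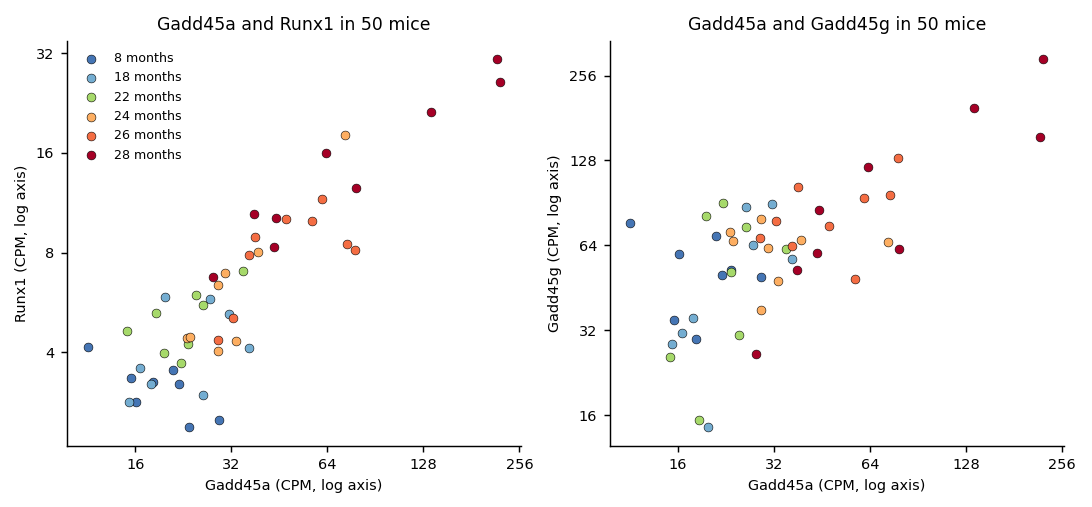
CPM of Runx1 (left) and Gadd45g (right) against Gadd45a in the 50 mice, both axes on a log scale, coloured by age in months. The 28 months-old mice spread along the upper part of the diagonal in Runx1, from 28.1 CPM of Gadd45a with 6.77 of Runx1 to 223 with 26.1, and 24 months replicate 1 lies among them at 72.8 with 18.1.

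The genes whose pattern across the 50 mice, with age means subtracted, was most like that of each member are given as descriptions. For Gadd45a they were Btg1 (r = 0.83), an antiproliferative factor, Tgif1 (0.80), a repressor of TGF-beta signalling, and Psmc2 (0.80), a subunit of the proteasome cap. For Gadd45g they were Ddit4 (0.81), an inhibitor of mTORC1, Sgk1 (0.81), a kinase, and Tsc22d3 (0.78), all 3 of them known glucocorticoid-induced genes. Hdac4 was closest to Crim1 (0.83), the kinase Sik2 (0.78), which phosphorylates class IIa deacetylases, and Nr3c1 (0.75), the glucocorticoid receptor. Runx1 was closest to Litaf (0.75), Gadd45a (0.74) and the potassium channel Kcnk5 (0.73), and Ncam1 to the scaffold protein Iqgap1 (0.72), A430073D23Rik (0.69) and the myosin Myo1c (0.68). Hdac5 was closest to Pcif1 (0.66), Cep131 (0.63) and Ptp4a3 (0.62), Hdac9 to Rasgrp3 (0.69), Ctbp2 (0.68) and Nfib (0.68), and Gadd45b to Efna1 (0.61), Spsb2 (0.57) and Mir22hg (0.56). Dach2 was closest to Nnt, listed under 2 identifiers (0.84 and 0.83), and Ppip5k1 (0.83).

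Of the list of glucocorticoid-responsive genes all 6 rose between 8 and 28 months, where 21% of all genes were called as higher. Their median log2 fold change was 0.85, with Cebpd at 2.82 and Fkbp5 at 1.99. Their summed level ranged from 295 to 632 TPM at 8 months and from 403 to 1508 TPM at 28 months, with the 3 highest values in replicates 1 (1508 TPM), 2 (1260 TPM) and 5 (1154 TPM) and the lowest in replicate 3 (403 TPM). These are the mice at the top and bottom of Gadd45a, Gadd45g and Runx1 at that age, and the part of the steroid response in these values was not tested.

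The rest of the pathway was read from lists of known partners at 28 against 8 months, where 21% of all genes were called as higher. Downstream of Dach2, 7 of the 8 tested genes of the myogenin axis rose and none fell, with a median log2 fold change of 1.29: Trim63 by 2.10 ± 0.39, Fbxo32 by 1.62 ± 0.32 and Myog, myogenin itself, by 1.32 ± 0.34 (adjusted p = 0.0013), while Myod1 was at -0.68 ± 0.29 (adjusted p = 0.047). At 28 months Trim63, Fbxo32 and Myog spread widely, at 415 ± 337, 1852 ± 1604 and 9.55 ± 10.1 CPM (mean ± SD). Their 8 months values were 97.2 ± 34.5, 603 ± 154 and 3.80 ± 1.51 CPM. Their median TPM rose from 127 to 456, from 142 to 303 and from 4.02 to 7.33. The receptor subunits Chrna1 and Chrnb1, also higher, spread less at 28 months, at 42.2 ± 10.8 and 64.0 ± 11.5 CPM. Chrng, the fetal receptor subunit, was below the filter. The summed level of the list was 281 to 573 TPM at 8 months and 338 to 3797 TPM at 28 months. Trim63 and Fbxo32 weighed most in this sum, with medians of 456 and 303 TPM at 28 months against 7.33 TPM for Myog. The order of mice by the sum is therefore mainly that of these 2 ligases. At 28 months the sum was lowest in replicate 3 and highest in replicates 2, 1 (2181 TPM) and 5 (1703 TPM). These mice were also at the bottom and top of the glucocorticoid list. Of the genes upstream in the chain, Hdac5 was called as higher in the same comparison (0.36, edgeR adjusted p = 3.7e-05), while Hdac4 and Dach2 were not called. These are RNA values, and the protein of these genes was not measured. Of 10 other genes known to be induced by denervation, 8 rose and none fell (median 2.003), led by Sln (4.25 ± 0.43), a regulator of the calcium pump, and Gdf5 (3.08 ± 0.67), a BMP ligand that protects denervated muscle.

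Beside the counts that follow, 21% of all genes were called as higher at 28 than at 8 months, and 39.6% were called in either direction. Some of these counts, such as 1 of 5, were near the share of all genes. Among the partners of class II deacetylases, 6 of 16 rose and 2 fell (median 0.14). Sik1, a kinase that exports these deacetylases from the nucleus, rose by 1.92 ± 0.39. It went from 25.4 ± 10.2 CPM at 8 months (SD, n = 8) to 96.4 ± 116 CPM at 28 months (SD, n = 9), a wide spread. The corepressor Ncor1 rose by 0.50 ± 0.11, and of the CaMKII kinases that act on these deacetylases Camk2a fell by 0.57 and Camk2b rose by 0.34. Of their MEF2 targets Mef2a rose by 0.42 ± 0.09 and Mef2d by 0.30 ± 0.07, while Mef2c was at -0.13 ± 0.12 (adjusted p = 0.38). Among inducers and partners of GADD45, 3 of 9 rose and none fell (median -0.06): Foxo3 by 1.35 ± 0.20, Atf4 by 0.56 ± 0.13 and Pcna by 0.30 ± 0.09. Of 4 tested genes of the RUNX complexes, the corepressor Runx1t1 rose by 1.23 ± 0.20 and its relative Cbfa2t3 fell by 0.46, while Cbfb, the shared partner subunit, was at -0.09 (adjusted p = 0.53). Of 5 relatives and partners of NCAM1, the receptor Fgfr1 rose by 0.70 ± 0.14 and the others were not called. Among 7 relatives and partners of DACH2, Eya4 (0.74 ± 0.15) and Eya3 (0.51 ± 0.10) rose, and the other 5, Dach1 among them, were not called. The fibre markers of the labelled tissue were high throughout: the 8 of them summed to between 122315 and 202084 TPM in every mouse.

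**Figure D5:**
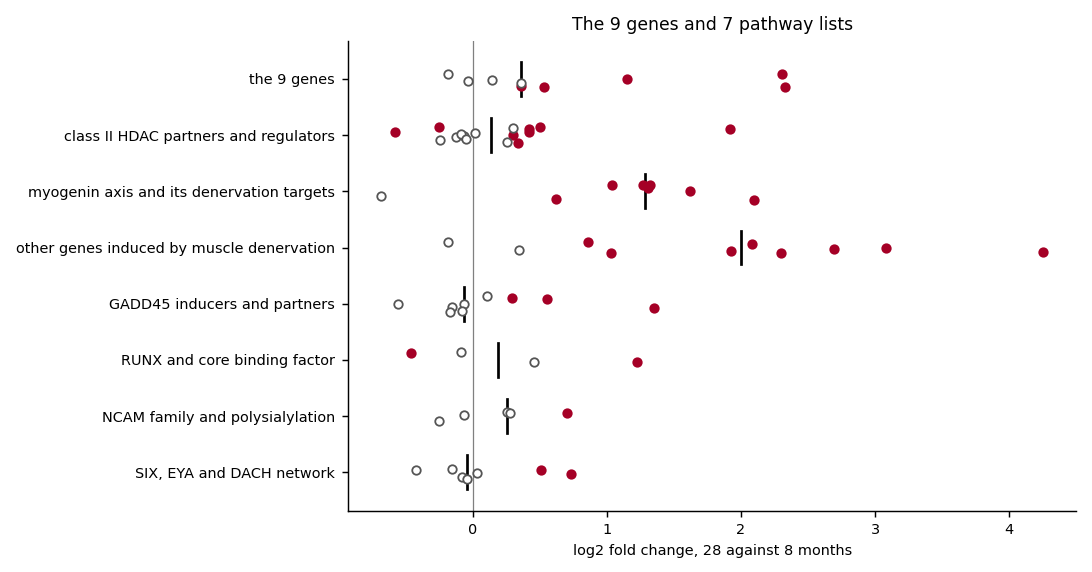
Log2 fold change of 28 against 8 months-old mice (horizontal axis) for the 9 genes and for the tested genes of 7 pathway lists. Each point is a gene, filled where the adjusted p was below 0.01, and black lines are medians. The medians are 1.29 for the myogenin axis and 2.003 for the other denervation-induced genes, against 0.36 for the 9 genes.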

How the data were processed

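Poly(A) RNA from the gastrocnemius of 50 mice was sequenced with a stranded kit. The authors trimmed reads with Cutadapt 1.9.1, assigned them with kallisto 0.43.1 to protein-coding transcripts of GRCm38, and deposited 2 tables per gene: counts, summed over transcripts with reads of several genes shared between them, and TPM. Counts were tested as deposited, in 1 edgeR 4.0.16 quasi-likelihood fit over the 6 ages (R 4.3.3, TMM factors, genes reaching 1 CPM in 8 or more mice), with p-values adjusted over all genes by the Benjamini-Hochberg method and a threshold of 0.01; SE is the log2 fold change over the root of its F statistic. CPM are on TMM-scaled libraries. Ratios (0.5 added to each count) and spread were tested by exact permutation, and correlations of log2(CPM + 0.5) by 100000 permutations within ages, at 0.05. DESeq2 1.42.0, limma 3.58.1 on log2(TPM + 1), other factors and filters, and leaving out each mouse were alternatives. Groups are the labelled ages; that mice are separate animals comes from the study, and intervals cover the spread between these animals only. The edgeR step was tested on simulated data.

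The members and lists were chosen with earlier results of these data known. Named were all 9 members, up to 3 called genes with the largest change per pathway list plus Myog, Atf4 and Mef2c, and the 3 genes most like each member; other list genes were named after their values were seen. Single values of some list genes are not reported here.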

Additional observations from a re-analysis of the deposited data

Results flagged for a closer look

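In 4 of the 54 groups of mice of 1 age examined for the 9 genes, a single mouse lay apart from the rest by Dixon's ratio on log2(CPM + 0.5); chance flags about 1 in 20 groups. Of these, 2 were the same mouse, 24 months replicate 1, with 72.8 CPM of Gadd45a and 18.1 CPM of Runx1, the highest of its age in both, at a summed glucocorticoid-response level of 658 TPM, also the highest of that age. At 28 months, replicate 1 stood apart in Hdac4 at 167 CPM. The 1 low value was that of Ncam1 in 18 months replicate 2 at 2.78 CPM, the mouse that was also lowest of its age in Dach2 (1.42 CPM) and Hdac4 (38.4 CPM).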

How the results depend on the processing

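The calls of Runx1, Gadd45a, Ncam1 and Hdac5 between 8 and 28 months held under every alternative run, and no result reversed. The number of members called was 4 to 5 there, 3 at 26 against 8 months throughout, 0 at 22 and 18 against 8 months throughout, and 5 to 6 over any age. At 24 against 8 months 0 became 1, Runx1, with upper-quartile factors, the likelihood ratio test, DESeq2 or the replicate number as a block, and 0 to 1 when single mice were left out (without replicate 4, 6 or 7 of 24 months). At 28 against 22 months 5 became 3 with upper-quartile factors, the replicate block, only the 2 ages in the fit, or 28 months replicates 1 and 2 left out together (added after the data were seen), and 3 to 5 without single mice; Gadd45g and Hdac5 were the calls lost. Upper-quartile factors also moved the share of higher calls in that comparison from 58.3% to 43.4%. At 28 against 8 months they moved it from 52.9% to 44.9%, and the median log2 fold change of all genes from 0.0072 to -0.046. The cause was not tested. Leaving out single mice gave 2 to 3 ratios and 0 to 3 differences in spread past 0.05. Correlations past 0.05 numbered 3 to 6 over the alternatives against 4. Mice with the same number did not pair: their median correlation over 121 pairs was 0.06, and 7 of 50 were closest to a mouse of their own number. Other settings changed no count by over 1.5 times.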
